A study of Drosophila melanogaster with 9 samples.

Results

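Testes mutant for can and testes mutant for sa served together as the primary spermatocyte stage of a small RNA study of Drosophila melanogaster, and the 2 libraries, 1 from each genotype, are set against each other here. All 117 transposable elements and all 99 piRNA clusters of the deposited tables were compared, as shares of each table's reads. The series holds 9 libraries, the other 7 being bam, bgcn and y w testes and testes mutant or heterozygous for aub or ago3. The can and sa testes had their apical tips cut away before RNA extraction, so that the early dividing germ cells were removed, and the labels give primary spermatocytes as their cell type. The bam and bgcn mutant testes, labelled as early mitotically dividing germline cells, and the y w testes, labelled as holding all stages up to mature sperm, were extracted whole. The labels give no alleles, background strain or age for the can and sa flies. The mutant stock and its own transposon insertions cannot be told apart from the effect of the mutation.

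The genes can and sa encode testis-specific homologues of general transcription factor subunits, and spermatocytes that lack either one stop before meiosis. In the BDGP6 annotation both lie on the minus strand of 3L, can from 10263909 to 10267111 and sa from 21405425 to 21406738. PIWI-interacting RNAs (piRNAs) are small RNAs of the gonad that direct Piwi-class proteins against transposons. They are cut from long transcripts of piRNA clusters, loci filled with transposon fragments, and from the transposon transcripts themselves. In germ cells the proteins Aub and Ago3 amplify them, while somatic cells of the gonad use Piwi and draw on clusters such as flamenco. Tip-cut testes still hold the somatic cyst cells that enclose spermatocytes. No marker transcripts were measured, so the labelled cell type was not checked. In a whole-tissue extract, fewer cells of a type and less RNA per cell cannot be told apart.

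The can library held 519588 transposon-mapping and 21594 cluster-mapping reads, and the sa library 262757 and 11636. The other 3 stage and wild-type libraries held 356879 to 580459 and 18371 to 32654. Each genotype has 1 library, so no difference below has a replicate check and no test was made. Ratios of shares carry 95% exact binomial intervals, which cover counting error only. A share resting on 100 reads has an interval from 18.6% below to 21.6% above its value, and one resting on 1000 reads from 6.09% below to 6.38% above. Reads of 1 PCR product are not independent molecules, and the lengths of the reads counted were not stated in the labels or headers.

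Both libraries were dominated by the same few retrotransposons and 1 DNA element, and can more so than sa. The 5 most abundant elements took 45.3% of transposon-mapping reads in can and 35.1% in sa, against 23.8% in bam, 24.1% in bgcn and 37.99% in y w. In can, 6 elements made up the first 50% of reads, and in sa 10 did. The effective number of elements (the exponential of the Shannon entropy of the shares) was 31.7 in can, 43.0 in sa, 39.8 in y w, 55.1 in bam and 55.9 in bgcn. The can library was thus the least even of the 5. Element 1360, Dsim-ninja, baggins and opus were among the 5 most abundant in both libraries, with aurora-element completing the list in can and copia in sa.

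Element 1360, also called hoppel, is a DNA transposon whose sequence is found in the Y-linked Suppressor of Stellate repeats, a source of abundant piRNAs in wild-type testis. It took 17.51% of reads in can (17.41 to 17.61), 8.29% in sa (8.19 to 8.40), 13.4% in y w, 7.91% in bgcn and 5.35% in bam. The can library lay above the 4 others, while sa lay close to bgcn. The can share was 2.11 times the sa share (2.08 to 2.14). Of 493 insertions of 1360 annotated in BDGP6, 57 lie on the Y chromosome, out of 80 transposon insertions annotated there in all.

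The retrotransposon Dsim-ninja, flanked by long terminal repeats (LTRs) and of the BEL type, took 9.44% of reads in can (9.36 to 9.52) and 5.64% in sa (5.55 to 5.73). Its relative aurora-element took 5.20% in can (5.14 to 5.26) and 2.57% in sa (2.51 to 2.63). Both were higher in can and sa than in bam, bgcn and y w, where Dsim-ninja ranged from 0.486 to 4.35% and aurora-element from 0.297 to 2.05%. The can to sa ratio was 1.67 (1.64 to 1.71) for Dsim-ninja and 2.02 (1.97 to 2.08) for aurora-element. Reads of aurora-element numbered 0.550 per read of Dsim-ninja in can and 0.456 in sa. The 2 elements are alike in sequence and the handling of reads that match both is not given, so reads may be shared between them.

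Baggins, a LINE retrotransposon, was the largest target in sa, at 9.32% (9.21 to 9.44), against 6.63% in can (6.56 to 6.70). The gypsy-family LTR element opus took 7.84% in sa and 6.55% in can, an order that turned to ratios of 1.01 with TMM and 1.06 with DESeq2 scaling. The copia element took 4.01% in sa and 3.08% in can. On shares these 3 had can to sa ratios of 0.711 (0.699 to 0.723), 0.836 (0.822 to 0.851) and 0.768 (0.749 to 0.787), all less than 2-fold from 1. The LINE elements Doc and R1A1-element, the latter of which inserts into ribosomal DNA, were close to equal on shares. Doc took 3.45% in can and 3.36% in sa, a ratio of 1.03 (0.9995 to 1.05). R1A1-element took 3.79% and 3.62%, a ratio of 1.05 (1.02 to 1.07). TMM and DESeq2 scaling moved the log2 ratios of both towards can, by 0.27 and 0.34.

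**Figure D1:**
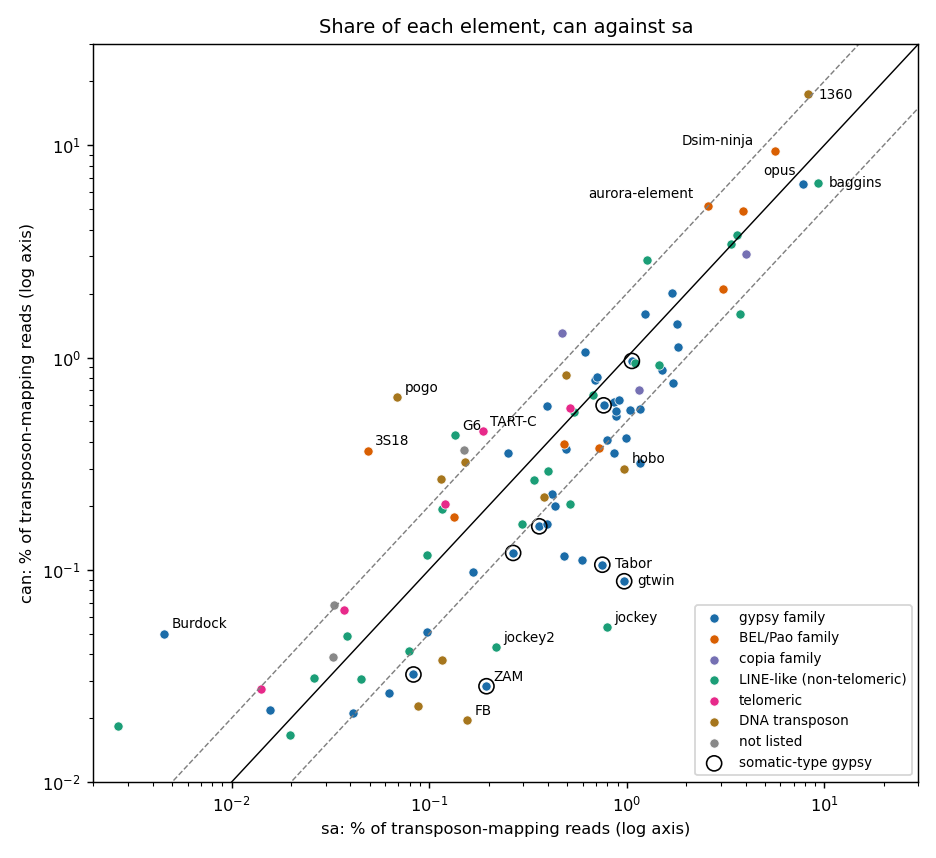
Share of transposon-mapping reads of the 95 elements with at least 100 reads in can and sa together, in sa (horizontal, log axis) and can (vertical, log axis), coloured by family, with the somatic-type gypsy elements ringed; the solid line marks equal shares and the dashed lines 2-fold. The most abundant elements lie near the line or above it, while many gypsy-family elements of middling abundance lie below it.

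Element by element, can and sa differed widely. Of the 117 elements, 95 had at least 100 reads in can and sa together, and the other 22 held 0.0980% of reads in can and 0.117% in sa. Of the 95, 14 (14.7%) were at least 2-fold higher in can and 24 (25.3%) at least 2-fold higher in sa. The 14 took 29.9% of can reads and 13.5% of sa reads, and the 24 took 5.87% of can reads and 17.1% of sa reads. The interval of the ratio lay wholly to 1 side of equality for 88 of the 95. The median absolute log2 ratio was 0.81, and log2 shares correlated at Pearson's r = 0.84 (Spearman's rho 0.84) across the 95 elements, a description across elements that share their 2 libraries. The elements nearest the threshold were aurora-element (2.02 times higher in can) and TAHRE (1.94) on 1 side, and flea (2.03 times higher in sa) and Tirant (1.94) on the other.

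The split by direction depended on the scaling. On shares the median log2 can to sa ratio of the 95 elements was -0.38. TMM factors, which centre on the typical element, moved every log2 ratio by 0.27, and gave 21 elements higher in can and 15 higher in sa. DESeq2 size factors moved them by 0.34 and gave 21 and 14, and the authors' own factors moved them by 0.12 and gave 15 and 23. All 14 elements called higher in can kept a 2-fold difference under these 3 scalings. This was fixed in advance, since all 3 moved every ratio towards can. Of the 24 called higher in sa, 14 kept a 2-fold difference. All 24 kept their direction, which shifts this small could not reverse. Totals without the 5 most abundant elements of either library gave 18 and 15, with those elements left out of the counts as well.

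Of the elements higher in can, 4 stood out by more than 6-fold. Burdock, a gypsy-family element, had 260 reads in can and 12 in sa, a share of 0.0500% against 0.00457% and a ratio of 10.96 (6.17 to 21.5). It took 0.0160% in bam, 0.0215% in bgcn and 0.0376% in y w. The DNA transposon pogo took 0.650% in can and 0.0689% in sa, a ratio of 9.43 (8.12 to 11.01), with 0.542% in bam, 0.699% in bgcn and 0.151% in y w. For both elements sa had the lowest share of the 5 libraries.

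The BEL-type element 3S18 took 0.364% in can and 0.0491% in sa, a ratio of 7.41 (6.20 to 8.93). Its share in bam was 1.09% and in bgcn 0.0253%, so this element was farther apart between those 2 libraries than between can and sa. G5A, a LINE of the G-element group, had 95 reads in can and 7 in sa, a ratio of 6.86 (3.21 to 17.5). With 7 reads its share in sa, 0.00266%, is known only to between 0.00107 and 0.00549%.

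Members of the G-element group differed among themselves. G6 took 0.431% in can and 0.135% in sa, a ratio of 3.20 (2.86 to 3.59), and 1.97% in bgcn. G2 took 2.89% in can and 1.27% in sa, a ratio of 2.27 (2.19 to 2.36). G-element itself, at 0.980 (0.926 to 1.04), and G4, at 0.846 (0.593 to 1.22), had intervals that include 1, and G5 had a ratio of 0.676 (0.530 to 0.864). The copia-family element 1731 took 1.31% in can and 0.472% in sa, a ratio of 2.78 (2.61 to 2.95). For G6 and 1731 the sa share was the lowest of the 5 libraries, and for G2 and 1731 the can share was the highest. Bari1, a Tc1-type DNA transposon, took 0.268% in can and 0.115% in sa, a ratio of 2.33 (2.06 to 2.65), with both far under its 3.18% in bam, 1.14% in bgcn and 1.08% in y w.

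Among the elements higher in sa, the LINE element jockey was the most extreme. It had 279 reads in can and 2094 in sa, a share of 0.0537% (0.0476 to 0.0604) against 0.797% (0.763 to 0.832). The sa share was 14.8 times the can share (13.1 to 16.9). In bam, bgcn and y w jockey took 0.0604, 0.0798 and 0.0701%, so that can sat close to these 3 and sa alone was high. The related jockey2 took 0.0431% in can and 0.219% in sa, 5.09 times higher (4.35 to 5.96), with 0.0128 to 0.0485% in the other 3. The foldback element FB took 0.0196% in can and 0.156% in sa, 7.95 times higher (6.38 to 9.97), with 0.00999 to 0.0182% elsewhere. The DNA transposon hobo, outside the rule for named elements and chosen after its values were seen, took 0.299% in can and 0.974% in sa, with 0.0737 to 0.541% elsewhere. In jockey, jockey2, FB and hobo the sa library was the highest of the 5.

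In 13 of the 16 gypsy-family elements at least 2-fold higher in sa, can lay farther than sa from the median of bam, bgcn and y w, against 28 of all 42 gypsy-family elements with enough reads. Part of this count was fixed by choosing elements higher in sa. Where sa also lay below that median, as in mdg1, micropia, flea, accord and gypsy5, can had to be the farther one. The element gtwin took 0.0883% in can and 0.972% in sa, 11 times higher in sa (9.96 to 12.2), with 1.02% in bam, 0.415% in bgcn and 0.814% in y w. Tabor took 0.106% in can and 0.753% in sa, 7.13 times higher in sa (6.48 to 7.85), with 0.525% in bam, 1.04% in bgcn and 0.239% in y w. In both, sa lay within the range of the other 3 libraries and can below all of them. HMS-Beagle2 also had its lowest share in can, with 0.317% in can, 1.17% in sa, 1.00% in bam, 1.31% in bgcn and 0.393% in y w. Its sa share was 3.68 times the can share (3.46 to 3.91).

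ZAM took 0.0283% in can and 0.195% in sa, 6.90 times higher in sa (5.73 to 8.35), with 0.0824 to 0.101% elsewhere, so that can was the lowest and sa the highest of the 5. The gypsy-family elements gypsy3 and gypsy2 were 5.37 times (4.88 to 5.92) and 4.13 times (3.75 to 4.56) higher in sa. Tc1-2, a Tc1-type DNA transposon, was 3.87 times higher in sa (3.09 to 4.87), at 0.0227% in can and 0.0879% in sa. Over all 24 elements at least 2-fold higher in sa, can held the lowest of the 5 shares in 18, and sa the highest in 12. Over the 14 higher in can, sa held the lowest in 7 and can the highest in 6. Over all 95 elements can was lowest in 41 and highest in 10, and sa was lowest in 22 and highest in 16. The choice of elements by their can to sa ratio favours such positions. All positions are on shares and were not recomputed under the other scalings, which moved the can to sa ratios of elements towards can.

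**Figure D2:**
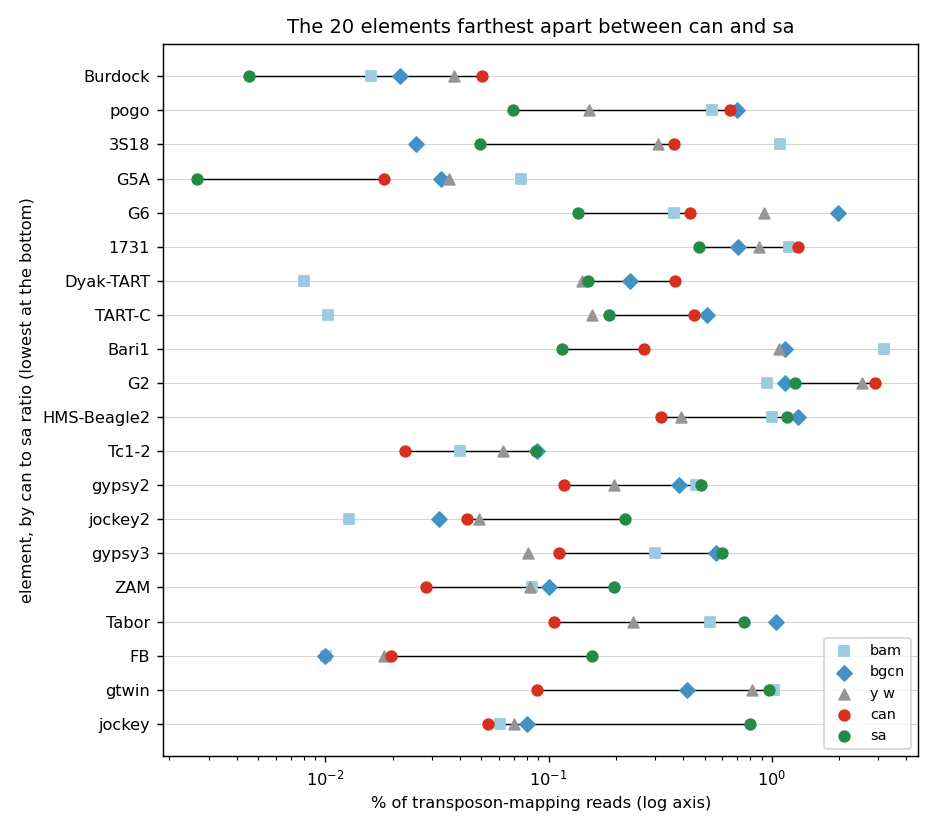
Share of transposon-mapping reads (horizontal, log axis) in 5 libraries for the 10 elements with the largest and the 10 with the smallest can to sa ratio; symbols stand for libraries, 1 each, and black lines join can and sa. In jockey, FB and jockey2 the sa library lies apart from the other 4, and in gtwin the can library does. In Tabor can is the lowest, with y w next to it.

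Measured as the log2 distance from the median of bam, bgcn and y w, the can library was the farther one in 17 of the 24 elements higher in sa and in 5 of the 14 higher in can, against 56 of all 95. Where can and sa lay on the same side of that median, the choice of elements by their ratio fixed which was farther. The y w share, from testes with all stages, lay between those of can and sa in 37 of the 95 elements. The median absolute log2 ratio to y w was 0.58 for can and 0.67 for sa. Against bam it was 1.45 for can and 1.00 for sa, and against bgcn 1.24 and 0.95.

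**Figure D3:**
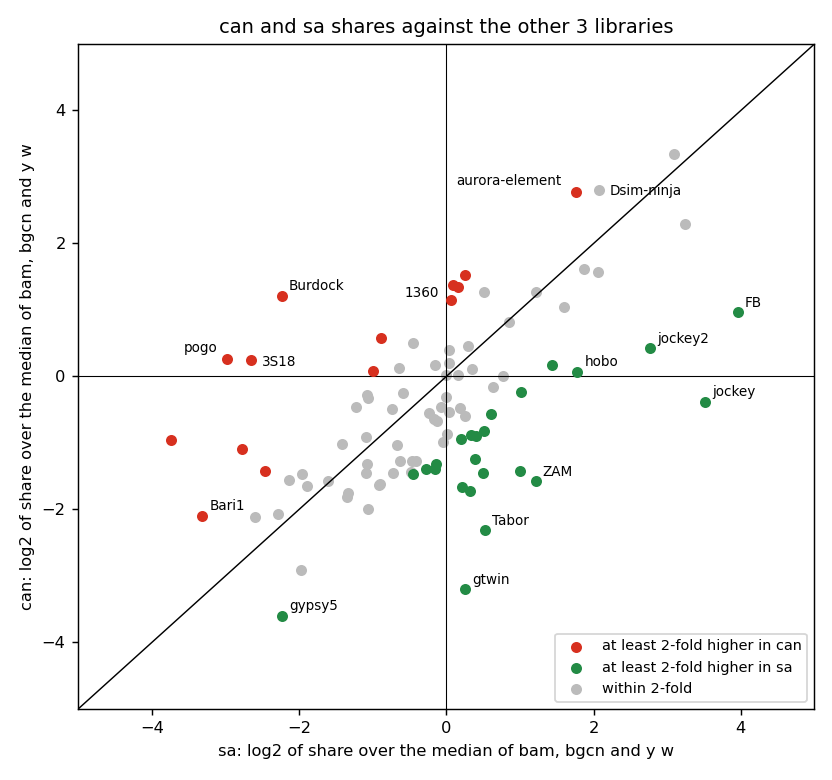
Log2 of each element's share over the median share of bam, bgcn and y w, for sa (horizontal) and can (vertical), 95 elements; the diagonal marks equal shares in can and sa. Points higher in sa (green) such as gtwin and Tabor lie below the horizontal zero line, where can is low, and others such as jockey and FB lie far to the right, where sa is high.

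The bam and bgcn libraries, which also share a labelled cell type, give a yardstick for 2 genotypes of 1 stage. Between them, 30 of 97 elements with at least 100 reads together (30.9%) were at least 2-fold apart, against 38 of 95 (40.0%) between can and sa. Over the 94 elements with enough reads in both pairs, the median absolute log2 ratio was 0.80 between can and sa and 0.65 between bam and bgcn. The gap between can and sa was the larger in 54 of them, and 13 were at least 2-fold apart in both pairs. Elements are not replicates, so no test was made of this difference.

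By family, gypsy-type LTR retrotransposons, the largest family, held less of the can library. They took 26.5% of reads in can (26.4 to 26.7) and 37.5% in sa (37.4 to 37.7), against 47.6% in bam, 47.1% in bgcn and 36.4% in y w. Of the 46 members, 42 had enough reads; 1 was at least 2-fold higher in can (Burdock) and 16 at least 2-fold higher in sa, against 14 and 24 of all 95 (14.7% and 25.3%). Under all 3 other scalings as well, 7 of the 16 stayed past 2-fold, or 7 of the 42 against 14 of all 95. With DESeq2 size factors alone these counts were the same, at 16.7% and 14.7%, so the family was then close to the share over all elements. The median log2 ratio of the 42 was -0.83 on shares, against -0.38 over all 95 elements. A ratio below 1 was found in 33 of the 42 (78.6%), against 57 of all 95 (60.0%). With DESeq2 size factors these were 30 (71.4%) and 50 (52.6%). Among the larger members within 2-fold, opus was described above. HMS-Beagle, named after its values were seen, took 0.353% in can and 0.251% in sa, on the other side from its relative HMS-Beagle2.

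Within the gypsy family, 8 elements are typical of somatic cells of the gonad, where piRNAs from flamenco target them: gypsy, gypsy5, gypsy10, gtwin, Idefix, Quasimodo, Tabor and ZAM. Together they took 2.09% of reads in can (2.06 to 2.13) and 4.46% in sa (4.38 to 4.54), 2.13 times higher in sa (2.07 to 2.19). The share was 5.93% in bam, 5.72% in bgcn and 3.36% in y w, so can lay below all others. All 8 had a ratio below 1 on shares, though Quasimodo passed to above 1 with TMM and DESeq2 scaling, and 6 were at least 2-fold higher in sa, with a median log2 ratio of -1.27 against -0.38 over all 95. Of the 6, gypsy and gypsy10 fell short of 2-fold under another scaling. Idefix (0.595% in can, 0.765% in sa) and Quasimodo (0.964% and 1.06%) were within 2-fold. Without Quasimodo, the most abundant member, the list was 3.004 times higher in sa. The other 38 gypsy-family elements took 24.4% in can and 33.1% in sa. The part of somatic cells in these values was not tested.

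The BEL/Pao family took 22.9% of reads in can (22.8 to 23.1) and 16.6% in sa (16.4 to 16.7), against 9.79 to 13.3% in the other 3 libraries. Of its 8 members 2 were at least 2-fold higher in can, aurora-element and 3S18, and none was so in sa, against 14.7% and 25.3% of all 95 elements. Roo took 4.90% in can and 3.88% in sa, a ratio of 1.26 (1.23 to 1.29). DNA transposons took 20.2% in can (20.1 to 20.3) and 10.8% in sa (10.7 to 10.96), with 11.2% in bam, 12.4% in bgcn and 16.3% in y w. Without 1360 their can to sa ratio was 1.05, against 1.86 with it. Of the 10 DNA transposons with enough reads 4 were higher in can (1360, pogo, Bari1, S-element) and 4 in sa (FB, Tc1-2, hobo, hopper). The 4 higher in sa stayed past 2-fold under the 3 other scalings, which could not undo the calls higher in can.

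LINE-like elements other than the telomeric ones took 23.4% of reads in can and 28.3% in sa, but this order turned to near equality under TMM scaling, at a can to sa ratio of 1.00, and to 1.05 with DESeq2 size factors. Of 24 with enough reads, 3 were at least 2-fold higher in can (G2, G5A, G6) and 4 in sa (jockey, jockey2, BS, F-element), or 12.5% and 16.7% against 14.7% and 25.3% of all 95 elements. F-element was the most abundant of the 4 higher in sa, with 1.61% in can and 3.76% in sa, and fell short of 2-fold under another scaling. The 3 copia-family elements took 5.09% in can and 5.64% in sa, and their order flipped in the same way, to ratios of 1.09 and 1.14.

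All 5 telomeric retrotransposons, which maintain chromosome ends, were higher in can, against 38 of all 95 elements (40%). Together the 5 took 1.33% in can (1.29 to 1.36) and 0.876% in sa (0.840 to 0.912), a ratio of 1.51 (1.44 to 1.59). TART-C took 0.449% in can and 0.186% in sa, 2.41 times higher in can (2.19 to 2.66). On shares it was the only one of the 5 past 2-fold, against 14 of all 95 elements (14.7%). With TMM or DESeq2 scaling TAHRE, HeT-A and TART-B also passed 2-fold, at 2.05 to 2.45, where 21 of all 95 elements (22.1%) did. The ratios of the others were 1.94 (1.34 to 2.87) for TAHRE, 1.75 (1.39 to 2.22) for HeT-A, 1.70 (1.495 to 1.93) for TART-B and 1.12 (1.05 to 1.19) for TART-A. The D. yakuba sequence Dyak-TART had a ratio of 2.46 (2.20 to 2.75) and took 0.818 reads per read of TART-C in can and 0.802 in sa, and reads may be shared between them. The same elements spanned a wider range between bam and bgcn, where the family took 0.417% and 2.03%, and can and sa lay between those values.

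**Figure D4:**
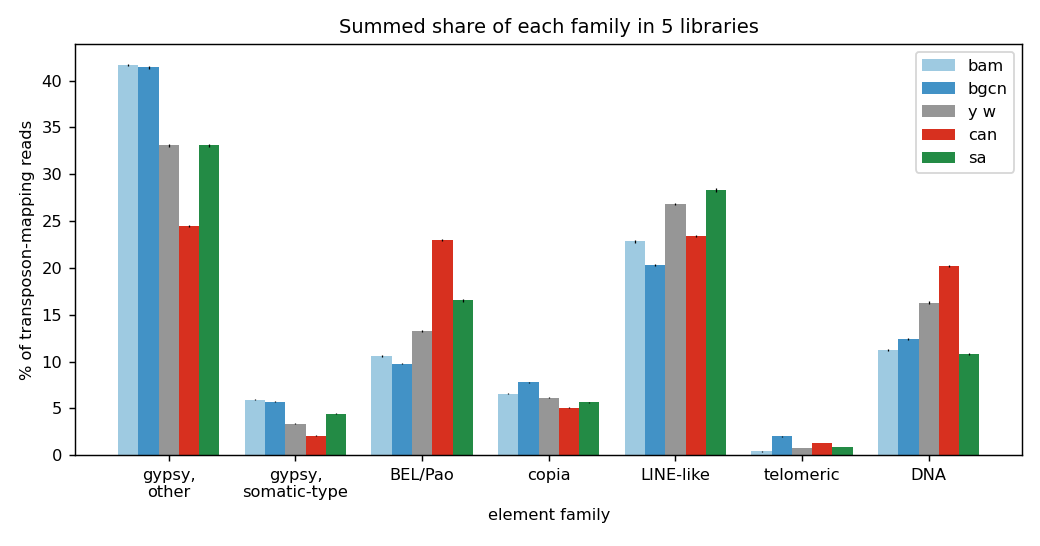
Summed share of transposon-mapping reads by family (bars from 0) in 5 libraries, 1 each, with 95% exact binomial intervals for counting error as error bars. The can library has the lowest share of both gypsy groups and the highest share of BEL/Pao elements and DNA transposons.

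Annotated copies in the reference genome did not order the elements by their ratio. Among the 92 of 95 elements with insertions annotated in BDGP6, the median number was 21 for those higher in can, 20 for those higher in sa and 24.5 for those within 2-fold. The rank correlation of the ratio with the number of insertions was 0.09 across these 92 elements, which share their 2 libraries. The reference strain's insertions are not those of the can or sa stocks.

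Reads mapping to piRNA clusters were concentrated on a few loci in both libraries. The 5 largest clusters took 54.1% of cluster-mapping reads in can and 60.1% in sa, and were the same 5 loci: both intervals of the 38C locus, flamenco, 20A and a locus on the unplaced arm U from 3113117 to 3137249. Coordinates are those of the deposited table, whose arm names are those of Release 5 of the genome. Of the 99 clusters, 29 had at least 100 reads in can and sa together, and the other 70 held 8.26% of reads in can and 7.33% in sa. Of the 29, 6 (20.7%) were at least 2-fold higher in can and 6 (20.7%) at least 2-fold higher in sa. The interval of the ratio included 1 for 9 of the 29. The clusters nearest the threshold were those on 3LHet from 2011004 to 2180268 (2.05 times higher in can) and from 356904 to 406827 (1.95), and flamenco (2.05 times higher in sa) and 3RHet from 2178310 to 2199481 (1.49).

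The flamenco cluster on X from 21505666 to 21684449, known as the main source of piRNAs against gypsy, ZAM and Idefix in somatic cells of the ovary, took 8.65% of cluster-mapping reads in can (8.28 to 9.03) and 17.8% in sa (17.1 to 18.5). It was 2.05 times higher in sa (1.93 to 2.19). Its share was 11.9% in bam, 13.3% in bgcn and 6.77% in y w, so that sa was the highest of the 5. The y w share was the lowest. The neighbouring 20A cluster on X from 21392175 to 21431907 had close shares, with 7.73% in can and 7.58% in sa, a ratio of 1.02 (0.939 to 1.11) that turned to 0.917 with TMM and 0.811 with DESeq2 scaling.

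At 38C on 2L the 2 adjacent intervals went in opposite directions. The longer, from 20148259 to 20227581, took 16.3% in can (15.8 to 16.8) and 8.52% in sa (8.02 to 9.04), a ratio of 1.91 (1.78 to 2.05). The shorter, from 20104660 to 20118503, took 7.97% in can (7.61 to 8.34) and 18.1% in sa (17.4 to 18.8), 2.27 times higher in sa (2.13 to 2.42). Summed, both intervals took 24.3% in can and 26.6% in sa, a ratio of 0.912 (0.872 to 0.953). Reads of the shorter interval per read of the longer numbered 0.489 in can and 2.12 in sa, the 2 ends of the range, with 0.700 in bam, 1.36 in y w and 1.60 in bgcn. The dual-strand 42AB cluster on 2R from 2144349 to 2386719 took 5.30% in can and 7.27% in sa, 1.37 times higher in sa (1.25 to 1.501), and both were lower than in bam, bgcn and y w.

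The widest ratios were at smaller clusters. The locus on 2L from 22489509 to 22556902 had 752 reads in can and 44 in sa, a share of 3.48% against 0.378% and a ratio of 9.21 (6.79 to 12.8), with 0.512% in bam, 0.594% in bgcn and 1.87% in y w. The U locus from 4015849 to 4029971 had 1029 reads in can and 88 in sa, 4.77% against 0.756% and a ratio of 6.30 (5.07 to 7.93). Its share was 0.0335% in bam, 0.361% in bgcn and 0.806% in y w, so can alone was high. Both kept a 2-fold difference under the 3 other scalings. The other 4 clusters called higher in can had 20 to 44 reads in sa and ratios of 2.05 to 2.32, and they were under 2-fold with TMM factors or DESeq2 size factors.

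On the other side, the X locus from 11089529 to 11095706 had 13 reads in can and 94 in sa, 0.0602% against 0.808%, and was 13.4 times higher in sa (7.48 to 26.1). It took 2.83% in bam, 3.18% in bgcn and 1.03% in y w, so can was the lowest by a wide margin. The 3RHet locus from 1029684 to 1067037 had 21 reads in can and 111 in sa and was 9.81 times higher in sa (6.11 to 16.5), with 0.132 to 0.244% elsewhere against 0.954% in sa. The U locus from 964336 to 1041768 took 0.454% in can, 1.80% in sa and 2.84% in y w, and was 3.96 times higher in sa (3.10 to 5.08). A short U locus from 8795936 to 8797237 took 2.05% in can and 5.18% in sa, 2.53 times higher in sa (2.24 to 2.87), with 0.0191% in bam, 0.00919% in bgcn and 5.53% in y w. All 6 clusters higher in sa kept a 2-fold difference under the 3 other scalings. TMM and DESeq2 scaling could not undo these calls, since they moved every cluster log2 ratio by -0.15 and -0.33, towards sa. Only the authors' factors, with a shift of 0.027, moved the cluster ratios towards can.

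**Figure D5:**
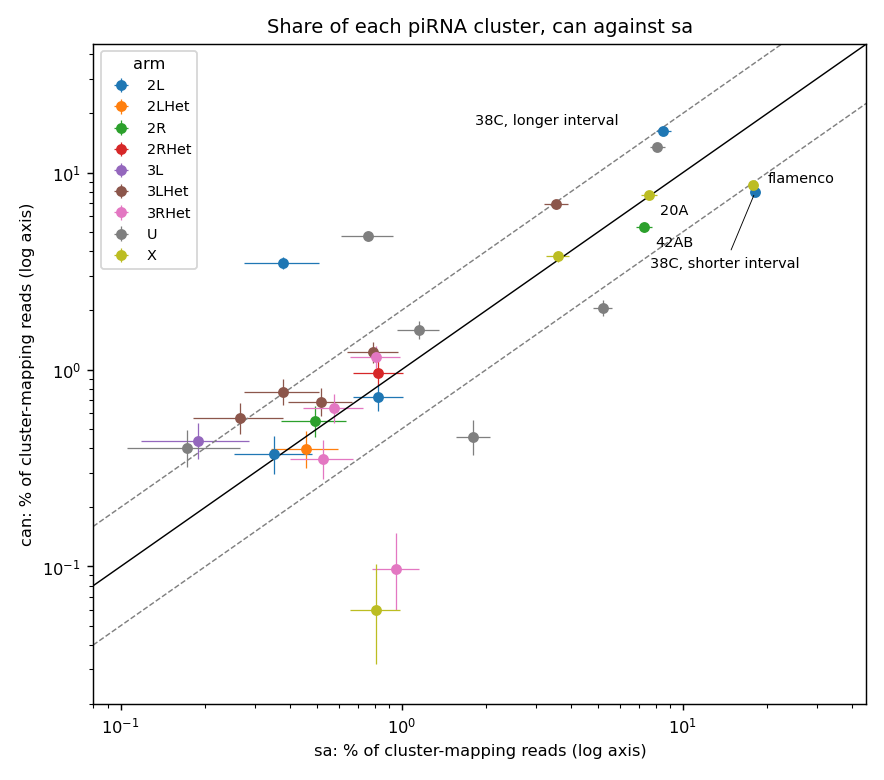
Share of cluster-mapping reads of the 29 piRNA clusters with at least 100 reads in can and sa together, in sa (horizontal, log axis) and can (vertical, log axis), coloured by arm, with 95% exact binomial intervals; the solid line marks equal shares and the dashed lines 2-fold. The 38C intervals lie on opposite sides of the line, 20A lies on it, and flamenco lies just past 2-fold higher in sa.

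By arm, clusters on X took 20.6% of reads in can (20.03 to 21.1) and 29.8% in sa (29.0 to 30.7), a can to sa ratio of 0.690 (0.660 to 0.721). Without flamenco the ratio on X was 0.989. Clusters on 3LHet took 11.5% in can (11.03 to 11.9) and 6.76% in sa (6.31 to 7.24), a ratio of 1.69 (1.56 to 1.84). All 5 of its clusters with enough reads had a ratio above 1, against 19 of all 29 clusters with enough reads (65.5%). The largest 3LHet cluster, from 356904 to 406827, took 6.89% in can and 3.54% in sa, against 0.650% in bam, 0.864% in bgcn and 3.05% in y w. Clusters on U took 23.6% in can and 18.5% in sa, a ratio of 1.275. The U ratio was 1.147 with TMM and 1.014 with DESeq2 scaling, and on shares 0.978 without the largest U cluster. On 2L the sums were 29.2% and 28.6%, an order that flipped with TMM and DESeq2 scaling, as did that of 3RHet. The order of 2RHet flipped with DESeq2 scaling, at a ratio of 0.913, but not with TMM, at 1.033.

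Between bam and bgcn, 28 of 71 clusters with enough reads (39.4%) were at least 2-fold apart, against 12 of 29 (41.4%) between can and sa. The median absolute log2 ratio over those sets was 0.84 for the bam and bgcn pair, against 0.73 for the can and sa pair. Over the 27 clusters with enough reads in both pairs, the order was the other way, at 0.63 between can and sa and 0.55 between bam and bgcn, and the gap between can and sa was the larger in 14.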

How the data were processed

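Small RNA libraries were made from hand-dissected testes with a TruSeq small RNA kit, per the labels' protocols. Bowtie version 1 and DESeq2 are named in the submitters' processing notes, without their role. Aligner settings, genome build, read lengths and the handling of reads with several matches were not given in the sources used here. Per the file headers, the authors deposited raw read counts per transposon and per cluster. They also deposited a normalised signal, which equals the count times 1 factor per library (0.7104 for can, 1.294 for sa), of unstated basis. In the bgcn cluster table a stray cell that names no cluster lies under the counts and was left out.

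Shares of each table's total were compared between can and sa, with 1 library each and so no test. Intervals are 95% exact (Clopper-Pearson) binomial intervals, conditional on the summed reads for ratios (scipy 1.17.1, Python 3.11.15). Features with at least 100 reads in both libraries together were counted as apart at 2-fold. Calculations were tested on simulated reads. Alternatives were the authors' signal, TMM factors (edgeR 4.0.16), DESeq2 1.42.0 size factors, totals without the largest features, and other minimums and thresholds. Named elements were the 10 largest and 10 smallest ratios, the 5 most abundant of each library and the telomeric ones. Named clusters were the 8 largest and smallest ratios, the 5 most abundant and those with textbook names. The comparison, element lists and rules were chosen with earlier results of these data known. Doc, R1A1-element, roo, F-element and the family members cited were named after their values were seen. Transposon insertions annotated in BDGP6 matched 106 of 117 elements by name. The aub and ago3 libraries were not used here.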

Additional observations from a re-analysis of the deposited data

How the results depend on the processing

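No paired analysis was possible because each genotype has 1 library and no result comes from a test. For elements, the median log2 can to sa ratio was -0.26 with the authors' signal, -0.11 with TMM, -0.045 with DESeq2 size factors and -0.18 with totals that leave out the 5 most abundant features of either library. Elements higher in sa numbered 15, 14 and 15 under the last 3. The setting without the most abundant features also left them out of its medians and counts. At 4-fold, 4 elements were higher in can and 8 in sa. For clusters, the median was 0.0052 with TMM, -0.17 with DESeq2 and -0.011 without the largest features, and 0.28 at a minimum of 10 reads and 0.33 with no minimum. Clusters higher in can numbered 2 with DESeq2, 19 at a minimum of 10 reads, 22 with no minimum, 2 at 4-fold and 2 where the whole interval passed 2-fold. Those higher in sa numbered 10 at both lower minimums and 2 at 4-fold. The 10 most abundant elements took 63.4% (can) and 52.8% (sa), and the 10 most abundant clusters 78.3% and 81.5%. With 100 reads required in each of 4 libraries, 8 clusters remained, with a median absolute log2 ratio of 0.83 between can and sa and 0.49 between bam and bgcn (0.70 for the latter pair with TMM over 71 clusters).

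Family ratios (can to sa) with the authors' signal and then without the most abundant member were 0.767 and 0.672 for the gypsy family, 0.510 and 0.333 for the somatic-type list, 1.505 and 1.24 for BEL/Pao, 0.980 and 1.24 for copia, 0.899 and 0.885 for LINE-like, 1.13 and 0.248 for the ribosomal DNA elements, 1.64 and 2.08 for telomeric elements, and 2.02 and 1.05 for DNA transposons. Without their largest cluster the arm ratios were 2.02 for 2L, 0.539 for 2LHet, 1.17 for 2R, 1.42 for 3LHet, 0.978 for U and 0.989 for X. Of 181 recomputed ratios of named features, 85 moved by less than their counting interval, 96 by more, and 0 changed the direction of a called difference. The 0 was fixed in advance, since each scaling moved all element or all cluster ratios by 1 factor well under 2-fold. The 0.248 of the ribosomal DNA elements rests on the few reads of 1 element. Depth limits the clusters, of which 70 of 99 had under 100 reads in both libraries together, and 3 reads, the floor set for a count of 0, are 0.0258% of the sa cluster table.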
